A study of Mus musculus with 12 samples.

Results

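Ccdc genes are named for a predicted coiled-coil domain, and 81 of them were bright in whole testis. A member is a gene whose symbol starts with Ccdc and a digit, that has a probe set with 1 gene symbol, and whose mean log2 intensity over the 12 arrays is at least 9. Of 19946 measured genes, 130 were Ccdc genes, and 81 of these reached that level while 49 did not. The level that chose the members is given as a description. The rule uses no difference among the stage groups.

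A coiled coil is a bundle of helices, and the name says little about function. Many Ccdc proteins are parts of the axoneme, the microtubule core of cilia and of the sperm tail, where they set the spacing of dynein motors, anchor dynein arms or line the inside of the doublet microtubules. Others sit at centrioles and centriolar satellites, in the acrosome, in the coupling of sperm head and tail, in the spliceosome or in membrane traffic. In the testis, germ cells build these structures while they pass through the cycle of the seminiferous epithelium, a fixed series of stages in which each stage holds its own set of spermatogonia, spermatocytes and spermatids.

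RNA of whole adult testes from mice of a mixed 129/C57BL6 background was measured on 12 Mouse Gene ST 1.0 arrays, 2 for each of 6 stage groups. In the order of the cycle these were XII-I, then II-IV, then IV-VI, then VII, then VIII-IX, then IX-XI. All mice had been synchronized: they received WIN 18,446, which blocks retinoic acid synthesis, at 100 ug per g daily for 7 days, from 2 to 8 days after birth, and 200 ug of retinoic acid at 9 days. After 43 to 49 days of recovery the testes were taken and staged by morphology. There was no untreated group in these data, and the source of the 2 samples of a group (separate animals or not) is not stated in the labels, so the p-values cover the spread among these samples alone, and that spread may be technical.

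Array medians lay between 296.9 and 309.1 intensity units, and precision is limited by the small number of arrays. Only 3 of the 12 arrays correlated best with their group partner over all genes. XII-I sample 2 lay closest to II-IV sample 2 (r = 0.998), II-IV sample 1 to IV-VI sample 2 (r = 0.998), and both VIII-IX samples to IX-XI sample 1. Among the 81 Ccdc genes, the 2 samples of XII-I differed by more than 0.5 log2 in 18 and those of II-IV in 13, against 0 in VII. The 5 spermatocyte markers were bright, from 10.88 to 12.65 log2. So were the 5 round spermatid markers, from 11.45 to 12.40, and the 5 elongating spermatid markers, from 12 to 13.68. The 5 spermatogonia markers were dimmer, from 8.12 to 9.47. The 5 measured epididymis markers lay between 5.31 and 7.98. Testis also holds somatic cells, and 4 Leydig cell markers averaged 11.04 in VII and 10.13 in IX-XI, with 0 of 4 past limma's F test over the groups and 1 of 4 at an unadjusted p under 0.05. In bulk tissue, fewer cells of a type and less RNA per cell cannot be told apart.

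The 3 brightest members did not pass the test for stage differences. Ccdc60 had the highest mean, 12.61 log2, and its 6 group means spanned 1.14-fold (moderated F test over the 6 groups in limma, Benjamini-Hochberg adjusted p = 0.42). Ccdc54 followed at 12.52, with a span of 1.26-fold (adjusted p = 0.088), and Ccdc92, found at centrosomes and cilia in human cells, at 12.40 with 1.19-fold (adjusted p = 0.38). Ccdc65, a subunit of the nexin-dynein regulatory complex that joins neighbouring doublets, lay at 12.16 and Ccdc116 at 12.01. The 5 genes just named were chosen for their level. In all, 30 members averaged at least 11 log2 and 56 at least 10. Just inside the level threshold were Ccdc166 at 9.11, Ccdc14 at 9.06 and Ccdc47 at 9.01. Just outside were Ccdc32 at 8.88, Ccdc106 at 8.83 and Ccdc107 at 8.77. An intensity also depends on the probes of a set, so the order of genes by level is not an order by transcript number.

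Stage groups differed for 32 of the 81 members in limma's moderated F test at an adjusted p under 0.05, a share of 39.5%. The same test called 19.9% of all genes and 31.6% of the 8101 genes with a mean of at least 9. The median range of group means over all members was 0.56 log2, against 0.47 over genes with a mean of at least 9. The remaining 49 members did not pass. At an unadjusted p under 0.05 the F test took 58 of the 81 (71.6%), against 36.2% of all genes and 55.7% of those with a mean of at least 9. A range of at least 2-fold was reached by 13 of the 32 genes and one of at least 3-fold by 4. Of all 81 members, 23.5% reached 2-fold, against 14% of genes with a mean of at least 9. For 3-fold the shares were 6.17% and 4.52%, and for 4-fold 2.47% and 2.31%. In fits without 1 array of IV-VI, VII, VIII-IX or IX-XI, the number of called genes fell over all genes as well as among members. The count of 32 rested on single arrays: it was 13 without VIII-IX sample 1 and 14 without VIII-IX sample 2. Leaving out IX-XI sample 1 gave 14 and IX-XI sample 2 gave 15, IV-VI sample 1 gave 14 and IV-VI sample 2 gave 15, and VII sample 1 gave 21 and VII sample 2 gave 14. With both VIII-IX sample 2 and IX-XI sample 2 left out, it was 0. Ccdc6, Ccdc18, Ccdc191, Ccdc113, Ccdc144b, Ccdc146 and Ccdc96 passed with every array and without each array in turn. A near equal share of all called genes did so too, so this trait is not particular to the Ccdc genes.

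**Figure D1:**
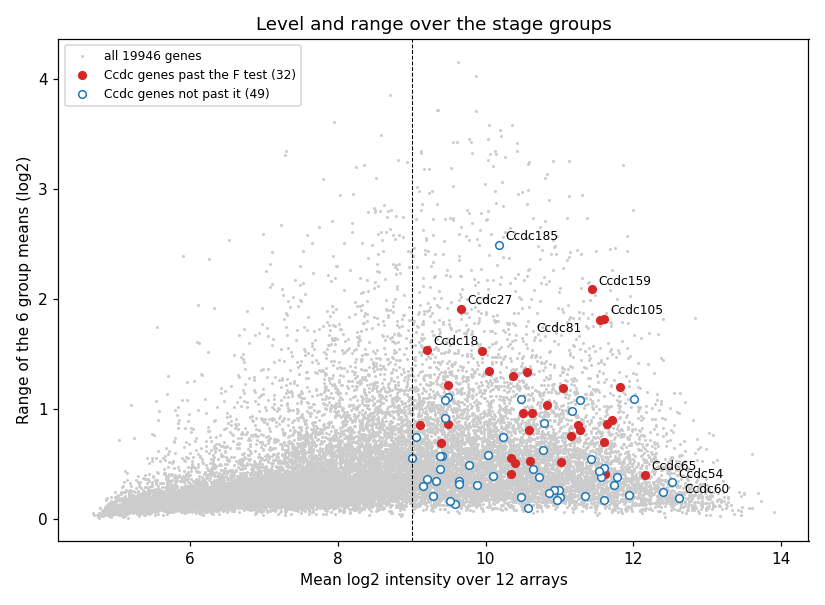
Mean log2 intensity over 12 arrays (x axis) against the range of the 6 group means in log2 (y axis) for all 19946 genes (grey) and the 81 Ccdc genes, filled where they passed the F test and open where they did not; the dashed line marks the level threshold of 9. Ccdc185 has the widest range of the Ccdc genes, 2.49 log2, and is open, while the brightest, Ccdc60, spans 0.19 log2.

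XII-I, the stages around the meiotic divisions, held the highest mean of more of the 32 genes than any other group. Their highest mean was in XII-I for 15 genes, in II-IV for 4, in IV-VI for 4, in VII for 2, in VIII-IX for 3 and in IX-XI for 4. Some of these places were near ties. Ccdc97 stood at 10.96 in XII-I and VIII-IX, Ccdc42 at 11.27 in XII-I and II-IV, and Ccdc71 at 10.50 in XII-I, II-IV and IV-VI. All of these count for XII-I, while Ccdc88c counts for IX-XI, at 10.63 there and 10.62 in XII-I. The 15 genes are 46.9% of the 32, and among all called genes with a mean of at least 9 the share highest in XII-I was 36.8%. The lowest mean fell in VII for 10 of the 32 and in VIII-IX for 9, or 31.2% and 28.1%, against 22.2% and 22.4% of those bright called genes. These shares are descriptions and were not tested against each other. The Sertoli, Leydig, myoid and endothelial cell marker lists had their highest group mean in VII: 5 Sertoli cell genes averaged 11.04 there and 10.72 to 10.87 in the other groups, and 4 Leydig cell genes 11.04 against 10.13 to 10.63. VII sample 2 was the highest array for both, at 11.21 and 11.31, against 10.86 and 10.77 in VII sample 1. For 4 macrophage genes it read 9.16, against 8.32 in sample 1. In limma's F test 0 of the 5 Sertoli cell genes passed, with 1 of 5 at an unadjusted p under 0.05. Of the 4 macrophage genes 1 passed (Adgre1), which was highest in II-IV, at 8.58, against 8.29 in VII. The macrophage list mean was also highest in II-IV, at 8.76, against 8.74 in VII. The myoid list differed little, at 9.46 in VII and 9.43 in XII-I, and its genes Myh11 and Tagln were highest in XII-I. The part of these markers in the low VII means was not tested.

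**Figure D2:**
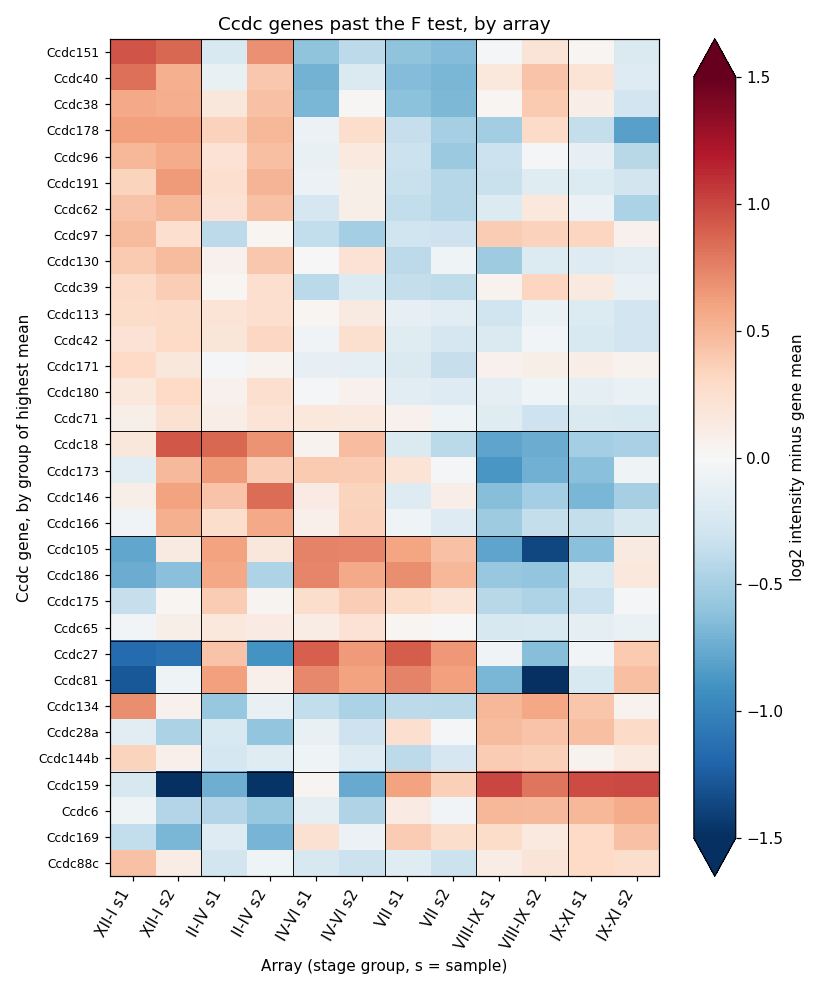
Log2 intensity minus the gene's mean over 12 arrays, by colour (blue lower, red higher, limits at 1.5 log2), for the 32 Ccdc genes past the F test (rows, grouped by the stage group of the highest mean) on each array (columns, in the order of the cycle). The upper block of 15 genes is red on both XII-I arrays and on II-IV sample 2, and mostly blue on the VII arrays.

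Axonemal genes gave the most calls of any role list. Of 26 listed genes with a known place in axonemes or cilia, 14 were members, and 9 of these 14 passed the F test. That is 64.3%, against 31.6% of genes with a mean of at least 9 and 19.9% of all genes. The list also held the most members, and the shares of the role lists were not tested against each other. Ccdc151, an anchor of outer dynein arms in motile cilia, had the widest range of those highest in XII-I. Its log2 intensities were 10.90 and 10.81 in XII-I, 9.73 and 10.64 in II-IV, 9.35 and 9.56 in IV-VI, 9.35 and 9.31 in VII, 9.94 and 10.15 in VIII-IX, and 9.99 and 9.74 in IX-XI. Both XII-I values lay above those of the 10 other arrays, and II-IV sample 2 at 10.64 came next. The XII-I mean of 10.86 ± 0.06 was 2.89-fold above the VII mean of 9.33 ± 0.03 (SD, n = 2 each; adjusted p = 0.022).

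Ccdc39 and Ccdc40 form the ruler that sets the repeat of dyneins and radial spokes along the axoneme. Ccdc40 read 10.88 and 10.58 in XII-I, 9.94 and 10.46 in II-IV, 9.34 and 9.83 in IV-VI, 9.40 and 9.37 in VII, 10.21 and 10.48 in VIII-IX, and 10.26 and 9.86 in IX-XI. Ccdc39 read 11.89 and 11.97 in XII-I, 11.62 and 11.85 in II-IV, 11.19 and 11.39 in IV-VI, 11.23 and 11.22 in VII, 11.65 and 11.92 in VIII-IX, and 11.74 and 11.49 in IX-XI. Both genes were high in XII-I, low in IV-VI and VII and intermediate in VIII-IX and IX-XI, with overlap between the XII-I and VIII-IX arrays for Ccdc39 but not for Ccdc40. The ratio of XII-I to VII was 2.54-fold for Ccdc40 (adjusted p = 0.024) and 1.63-fold for Ccdc39 (adjusted p = 0.026). Across the 12 arrays they correlated at r = 0.97, a description over arrays that share the stage groups.

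Ccdc96 and Ccdc113, partners that in ciliates lie between a radial spoke and the nexin-dynein regulatory complex, were also highest in XII-I. Ccdc113 read 10.88 and 10.89 in XII-I, 10.81 and 10.85 in II-IV, 10.63 and 10.74 in IV-VI, 10.48 and 10.43 in VII, 10.30 and 10.50 in VIII-IX, and 10.39 and 10.31 in IX-XI. All 4 arrays of XII-I and II-IV lay above all arrays of the other groups, and the VIII-IX arrays overlapped with those of VII and of IX-XI. Its highest mean, in XII-I, was 1.44-fold above its lowest, in IX-XI (adjusted p = 0.017). Ccdc96 was at 11.16 ± 0.04 in XII-I, 1.95-fold above its 10.19 ± 0.16 in VII (SD, n = 2 each; adjusted p = 0.019). Both passed in 12 of 12 leave-outs, and they correlated at r = 0.92 over the 12 arrays.

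**Figure D3:**
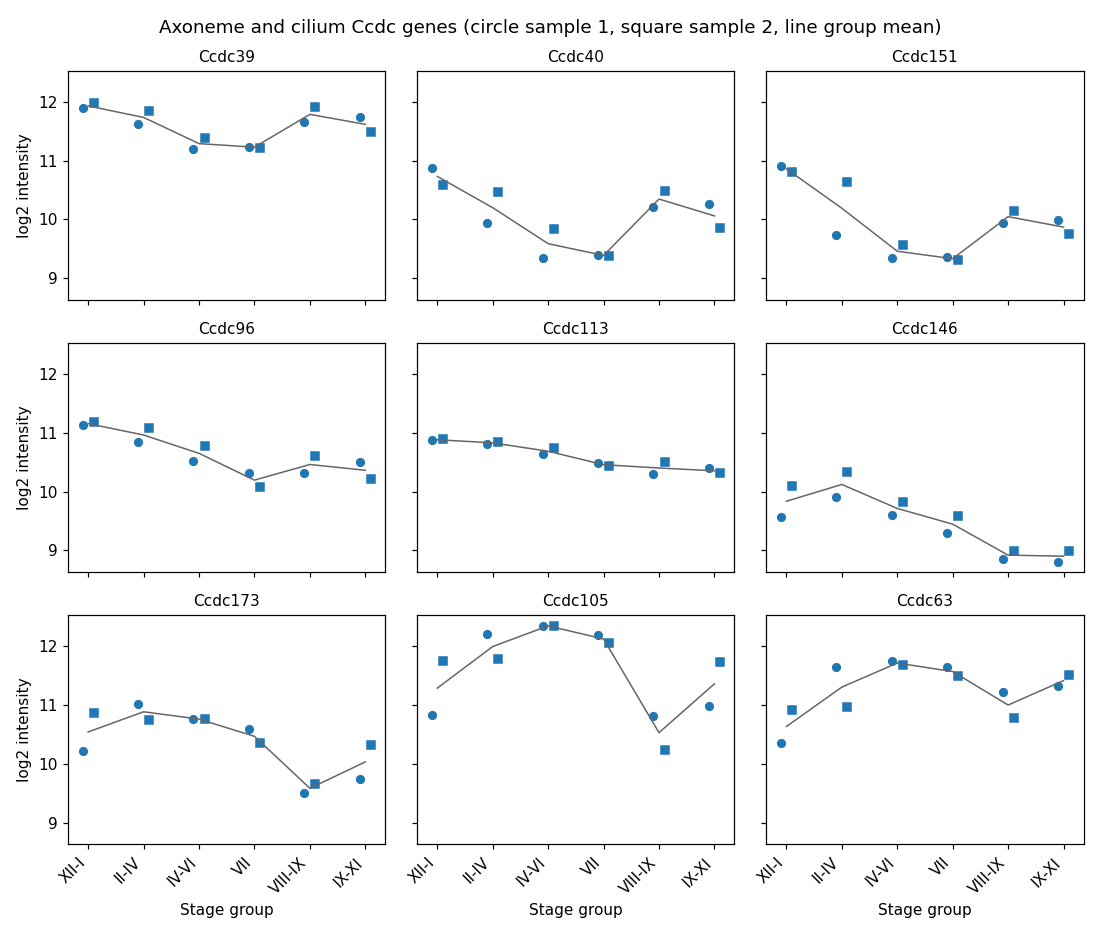
Log2 intensity (y axis) of 9 axoneme and cilium Ccdc genes in the 6 stage groups (x axis, in the order of the cycle), with 1 point per array and a line through the group means. Ccdc39, Ccdc40 and Ccdc151 dip in IV-VI and VII, where Ccdc105 and Ccdc63 have their highest means.

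A second set of axonemal genes had its highest means in II-IV or IV-VI and its lowest in VIII-IX or IX-XI. Ccdc105, a protein of the inside of sperm doublet microtubules, read 10.83 and 11.74 in XII-I, 12.22 and 11.78 in II-IV, 12.35 and 12.34 in IV-VI, 12.20 and 12.05 in VII, 10.82 and 10.24 in VIII-IX, and 10.98 and 11.74 in IX-XI. Its 4 arrays of IV-VI and VII lay at 12.05 or above, as did II-IV sample 1, and both VIII-IX arrays were the lowest, with XII-I sample 1 at 10.83 and IX-XI sample 1 at 10.98 beside them. The IV-VI mean of 12.35 ± 0.005 was 3.53-fold above the VIII-IX mean of 10.53 ± 0.41 (SD, n = 2 each; adjusted p = 0.030). Its call held in 6 of 12 leave-outs.

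Ccdc173, another protein of the microtubule interior, read 10.22 and 10.86 in XII-I, 11.02 and 10.75 in II-IV, 10.77 and 10.76 in IV-VI, 10.59 and 10.35 in VII, 9.51 and 9.66 in VIII-IX, and 9.75 and 10.32 in IX-XI. Both VIII-IX arrays were below all others, and IX-XI sample 1 came next. Its II-IV mean was 2.47-fold above its VIII-IX mean (adjusted p = 0.027). Ccdc146, which mouse sperm need to form a flagellum, read 9.57 and 10.10 in XII-I, 9.91 and 10.33 in II-IV, 9.61 and 9.82 in IV-VI, 9.30 and 9.59 in VII, 8.85 and 8.98 in VIII-IX, and 8.81 and 8.99 in IX-XI. The 4 arrays of VIII-IX and IX-XI were the 4 lowest and did not overlap with any other, and its II-IV mean was 2.33-fold above its IX-XI mean (adjusted p = 0.017). Ccdc65 spanned 1.32-fold, with 12.33 ± 0.08 in IV-VI and 11.93 ± 0.01 in VIII-IX (SD, n = 2 each; adjusted p = 0.037), and kept its call in 2 of 12 leave-outs.

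The dynein arm anchors did not share 1 profile. Ccdc63, an anchor of outer dynein arms in mouse sperm tails and a relative of Ccdc114, read 10.35 and 10.92 in XII-I, 11.64 and 10.97 in II-IV, 11.75 and 11.68 in IV-VI, 11.64 and 11.50 in VII, 11.22 and 10.78 in VIII-IX, and 11.32 and 11.51 in IX-XI. XII-I sample 1 was its lowest array, and the 4 arrays of IV-VI and VII were at 11.50 or above, with II-IV sample 1 and IX-XI sample 2 among them. It missed the F test (adjusted p = 0.066), but against the mean of the other 5 groups its XII-I level was lower, with a log2 difference of -0.77 ± 0.19 (SE, 2 arrays and 10 arrays; adjusted p = 0.038 in limma). In the same contrast Ccdc151 was higher by 1.08 ± 0.19 (adjusted p = 0.022). Ccdc114, which works with Ccdc151 in respiratory cilia, was highest in VIII-IX, at 10.36 ± 0.07, and did not pass (adjusted p = 0.082). Over the 12 arrays, Ccdc63 correlated with Ccdc151 at r = -0.89, and Ccdc151 with Ccdc114 at r = 0.51. The choice of Ccdc63 and Ccdc114 was made after their values were seen.

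The other axonemal members did not pass the F test. Ccdc181, a microtubule-binding protein of sperm, had a range of 1.24-fold (adjusted p = 0.26), Ccdc189, needed for sperm motility in mice, 1.16-fold (adjusted p = 0.33), and Ccdc34, a flagellum protein, 1.24-fold (adjusted p = 0.19).

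For comparison, 41 of 79 measured genes on a list of other axoneme and flagellum genes passed the F test (51.9%), and XII-I was the highest group for 25 of the 41. The widest were Iqca with a range of 7.77-fold, Dnaic2, an intermediate chain of outer dynein arms, with 7.33-fold, Cfap58 with 5.16-fold and Fsip1 with 4.83-fold. Dnaic2 was highest in XII-I, at 11.64, and lowest in VII, at 8.76, which are also the peak and trough groups of Ccdc151. Armc4, a further member of the docking machinery of outer arms in cilia, was instead highest in IV-VI, at 10.86, and lowest in VIII-IX, at 9.57.

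**Figure D4:**
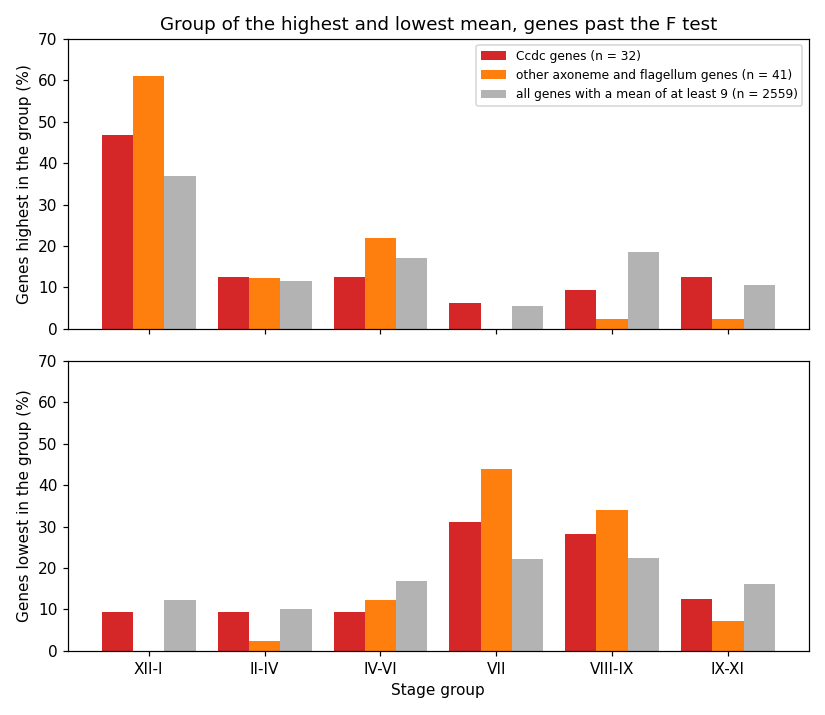
Percent of genes past the F test (y axis) whose highest mean (upper panel) or lowest mean (lower panel) lies in each stage group (x axis), for 32 Ccdc genes, 41 other axoneme and flagellum genes and 2559 genes with a mean of at least 9. XII-I holds the highest mean of 46.9%, 61% and 36.8% of them.

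Of 8 listed genes of the sperm head, acrosome and tail coupling, 7 were members and 3 passed. That is 42.9%, against 31.6% of genes with a mean of at least 9. All 3 had their highest mean in XII-I, for Ccdc42 in a near tie with II-IV. Ccdc38, a manchette and flagellum protein that binds Ccdc42, read 12.38 and 12.37 in XII-I, 11.98 and 12.26 in II-IV, 11.13 and 11.84 in IV-VI, 11.20 and 11.14 in VII, 11.84 and 12.21 in VIII-IX, and 11.91 and 11.53 in IX-XI. Both XII-I arrays were above all others, and both VII arrays and IV-VI sample 1 were the 3 lowest. The XII-I mean was 2.30-fold above the VII mean (adjusted p = 0.033). Ccdc62, an acrosome protein needed for male fertility in mice, was at 12.11 ± 0.04 in XII-I, 1.82-fold above its 11.25 ± 0.05 in VII (SD, n = 2 each; adjusted p = 0.034). Ccdc42, a protein of the head and tail coupling of spermatids, was in XII-I 1.43-fold above its IX-XI level (adjusted p = 0.031). Its means in XII-I and II-IV were both 11.27, and XII-I against the other 5 groups was not called for it (adjusted p = 0.056 in limma). Each of the 3 kept its call in 4 of 12 leave-outs. Ccdc136, Ccdc87, Ccdc33 and Ccdc172 did not pass, with adjusted p of 0.053, 0.066, 0.12 and 0.41.

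Of 18 listed centrosome and spindle genes, 9 were members and only Ccdc18 passed. That is 11.1%, against 31.6% of genes with a mean of at least 9. Ccdc18, a protein of centriolar satellites, read 9.38 and 10.14 in XII-I, 10.07 and 9.89 in II-IV, 9.27 and 9.68 in IV-VI, 9.00 and 8.81 in VII, 8.43 and 8.46 in VIII-IX, and 8.70 and 8.73 in IX-XI. Both VIII-IX arrays were the lowest, followed by both IX-XI arrays, and none of these 4 overlapped with another group. Its II-IV mean of 9.98 ± 0.13 was 2.90-fold above its VIII-IX mean of 8.45 ± 0.03 (SD, n = 2 each; adjusted p = 0.014), and the call held in 12 of 12 leave-outs. Ccdc66, Ccdc88a (girdin), Ccdc77, Ccdc14, Ccdc92, Ccdc124, Ccdc138 and Ccdc15 did not pass the F test, with adjusted p between 0.053 and 0.65. Of the 4 meiosis genes listed under Ccdc names, 0 were members.

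Among 5 members listed for RNA and the nucleus, Ccdc6, Ccdc97 and Ccdc130 passed (60%, against 31.6% of genes with a mean of at least 9). Ccdc6, a tumour suppressor known for its fusion with RET in human thyroid cancer, read 10.77 and 10.39 in XII-I, 10.39 and 10.27 in II-IV, 10.69 and 10.38 in IV-VI, 10.96 and 10.80 in VII, 11.33 and 11.33 in VIII-IX, and 11.34 and 11.40 in IX-XI. The 4 arrays of VIII-IX and IX-XI lay above all others. Its IX-XI mean of 11.37 ± 0.04 was 2.05-fold above its II-IV mean of 10.33 ± 0.08 (SD, n = 2 each; adjusted p = 0.012), the smallest adjusted p of the 81 genes. Ccdc97, which binds the spliceosome, was highest in XII-I and VIII-IX, both at 10.96, and lowest in IV-VI, at 10.15 (1.75-fold, adjusted p = 0.0195). Ccdc130, also a spliceosome-associated protein, was in XII-I 1.75-fold above its VIII-IX level (adjusted p = 0.037). Of 4 members listed for membrane traffic and mitochondria (Ccdc47, Ccdc50, Ccdc90b and Ccdc91), 0 passed limma's F test, with adjusted p between 0.20 and 0.60. At an unadjusted p under 0.05 it took 0 of the 4. For genes with a mean of at least 9 these shares were 31.6% and 55.7%. With so few genes on a list, 1 gene changes its share much.

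The remaining 42 members carry no role on the lists. Against 31.6% of genes with a mean of at least 9, 16 of them (38.1%) passed. They include 3 of the 4 widest ranges among called genes. Ccdc159 read 11.21 and 9.85 in XII-I, 10.71 and 9.97 in II-IV, 11.49 and 10.69 in IV-VI, 12.05 and 11.81 in VII, 12.45 and 12.25 in VIII-IX, and 12.43 and 12.43 in IX-XI. The 6 arrays of VII, VIII-IX and IX-XI lay above all others, and XII-I sample 2 was the lowest of all. Its IX-XI mean was 4.25-fold above its II-IV mean (adjusted p = 0.025), and the call held in 8 of 12 leave-outs.

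Ccdc27 read 8.52 and 8.56 in XII-I, 10.10 and 8.77 in II-IV, 10.57 and 10.30 in IV-VI, 10.57 and 10.32 in VII, 9.61 and 9.03 in VIII-IX, and 9.63 and 10.06 in IX-XI. The IV-VI and VII arrays were the 4 highest, and the XII-I arrays and II-IV sample 2 the 3 lowest. VII stood 3.76-fold above XII-I (adjusted p = 0.032), with a call in 2 of 12 leave-outs. Ccdc81 read 10.28 and 11.48 in XII-I, 12.16 and 11.63 in II-IV, 12.27 and 12.16 in IV-VI, 12.30 and 12.16 in VII, 10.87 and 9.98 in VIII-IX, and 11.33 and 12 in IX-XI. Its lowest array was VIII-IX sample 2 and its next lowest XII-I sample 1, while XII-I sample 2 lay in the middle of the range. VII stood 3.50-fold above VIII-IX (adjusted p = 0.043), with a call in 3 of 12 leave-outs.

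Of the others named by their range, Ccdc186, linked to dense-core vesicles in worms and rodent cells, was 2.53-fold higher in IV-VI than in XII-I (adjusted p = 0.030). Ccdc178 in XII-I stood 2.29-fold above its IX-XI level (adjusted p = 0.036), and Ccdc134 was 1.95-fold higher in VIII-IX than in IV-VI (adjusted p = 0.030). Ccdc169 was 1.87-fold higher in IX-XI than in XII-I, Ccdc191 in XII-I 1.82-fold above its VII level, Ccdc28a 1.81-fold higher in VIII-IX than in II-IV and Ccdc166 1.81-fold higher in II-IV than in VIII-IX. Ccdc191 passed in 12 of 12 leave-outs, Ccdc28a in 9, Ccdc169 in 8 and Ccdc166 in 3.

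The widest range of all 81 genes belonged to Ccdc185, which did not pass the F test (adjusted p = 0.054). It read 10.49 and 8.31 in XII-I, 9.34 and 8.25 in II-IV, 10.17 and 9.25 in IV-VI, 10.64 and 10.60 in VII, 11.32 and 11.25 in VIII-IX, and 11.38 and 11.20 in IX-XI. The 2 XII-I samples differed by 2.18 log2, the largest gap between partners in any group, and the group means spanned 5.63-fold, with 11.29 in IX-XI and 8.80 in II-IV. The 4 arrays of VIII-IX and IX-XI were the 4 highest. It was named after its values were seen.

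The 5 members with the smallest range spanned 1.13-fold or less. They were Ccdc192 with 1.07-fold, Ccdc127 with 1.10-fold, Ccdc15 with 1.12-fold, and Ccdc86 and Ccdc50 with 1.13-fold each. Ccdc192 read between 10.54 and 10.64 in its group means (adjusted p = 0.96).

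Set against the average of the 5 remaining groups, XII-I was higher for 15 members (7.51% of all genes were) and lower for 6 (3.33% of all genes). Those 15 are 18.5% of the 81, and they are not all the same genes as the 15 called genes with their highest mean in XII-I. They include Ccdc18, highest in II-IV, and Ccdc88a, which missed the F test, but not Ccdc42 or Ccdc71. Ccdc151 was 2.12-fold higher, Ccdc40 1.76-fold (log2 difference 0.82 ± 0.17, SE, adjusted p = 0.026) and Ccdc178 1.67-fold. Lower were Ccdc27 by 2.56-fold (-1.36 ± 0.29, adjusted p = 0.026), Ccdc186 by 1.77-fold and Ccdc116 by 1.73-fold (adjusted p = 0.047). Ccdc116 missed the F test over the groups (adjusted p = 0.069), as did Ccdc63 and Ccdc183, which are also among the 6. The median difference over all 81 was 0.11 log2 in XII-I, with 49 of them above 0, against a median of 0.05 over genes with a mean of at least 9. With quantile normalization repeated, 8 were higher and 11 lower, and with array quality weights 2 were higher and 1 lower. Both counts also depended on single arrays. The 15 higher became 0 when either XII-I sample was left out. Leaving out II-IV sample 1 gave 9, IV-VI sample 1 gave 5, IX-XI sample 2 gave 3, VII sample 1 gave 8, VII sample 2 gave 7 and VIII-IX sample 1 gave 7. The 6 lower became 0 without either XII-I sample, IV-VI sample 1 or IX-XI sample 2, 12 without II-IV sample 2, 1 without VIII-IX sample 1, and 2 without IV-VI sample 2, either VII sample or IX-XI sample 1. Round spermatid markers had their lowest group mean in XII-I: the mean of 5 of them was 11.01 and 11.63 on the XII-I arrays and 11.57 to 12.48 on the 10 others, with 0 of 5 past limma's F test and 5 of 5 at an unadjusted p under 0.05, and their part in these results was not tested.

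In VIII-IX, 4 members were higher (3.53% of all genes) and 9 lower (4.31% of all genes). Higher were Ccdc134 by 1.57-fold, Ccdc6 by 1.51-fold, Ccdc28a by 1.45-fold and Ccdc144b, which has close relatives whose transcripts its probes may also bind, by 1.36-fold. Lower were Ccdc81 by 2.56-fold (-1.36 ± 0.32, SE, adjusted p = 0.037), Ccdc105 by 2.45-fold (-1.29 ± 0.26, adjusted p = 0.024) and Ccdc173 by 1.94-fold (-0.96 ± 0.18, adjusted p = 0.021), followed by Ccdc18, Ccdc146, Ccdc175, Ccdc66, Ccdc71 and Ccdc65. Both counts were 0 with array quality weights and 0 without either VIII-IX sample, and 13 and 13 without XII-I sample 1. The 4 higher were also 2 without IV-VI sample 2, either IX-XI sample or VII sample 2, and 6 without XII-I sample 2. The 9 lower were also 3 without IV-VI sample 2 or IX-XI sample 2 and 5 without IV-VI sample 1. Elongating spermatid markers were high there: the mean of 5 was 13.42 and 13.38 on the VIII-IX arrays and 12.24 to 13.31 on the 10 others, with Tnp1 and Tnp2 past the F test, and their part was not tested.

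In IX-XI, Ccdc6 was higher by 1.55-fold (adjusted p = 0.022; 1.9% of all genes were higher) and Ccdc146 lower by 1.63-fold (adjusted p = 0.041; 1.79% of all genes were lower). With array quality weights, 6 members were higher and 6 lower. Without either IX-XI sample, 0 members were called in IX-XI. Without XII-I sample 1, 5 were higher and 2 lower, and without XII-I sample 2, 2 were higher and 2 lower. The single lower call was lost without either IV-VI sample, VII sample 2 or VIII-IX sample 2 and became 2 without VIII-IX sample 1. In II-IV, IV-VI and VII, limma called 0 of the 81 members and 0% of all genes. At an unadjusted p under 0.05, 18 members were higher and 13 lower in II-IV (22.2% and 16%, against 9.13% and 8.07% of all genes). In IV-VI these were 16 and 10 (19.8% and 12.3%, against 9.89% and 10.5%), and in VII 10 and 26 (12.3% and 32.1%, against 7.68% and 12.2%). The share of all genes in every group contrast includes dim genes, which passed the F test less often. Shares of genes with a mean of at least 9 were not computed for the contrasts. Array quality weights gave 13 higher and 8 lower in IV-VI. Leaving out an array also made calls in these groups: in VII, 3 members were higher and 9 lower without II-IV sample 1, and 1 was lower without VII sample 1. In II-IV, 5 were higher and 8 lower without XII-I sample 2, and 2 and 2 without XII-I sample 1. In IV-VI, 3 were higher and 3 lower without II-IV sample 1, and 1 and 4 without XII-I sample 2.

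Ccdc180 was the only member with several probe sets, 27 in all, so its profile could be read more than once. All 27 had their highest mean in XII-I, and the lowest was in VII for 13 and in IX-XI for 14. The brightest set, which stands for the gene in all tests, read 11.78 and 11.92 in XII-I, 11.68 and 11.87 in II-IV, 11.60 and 11.68 in IV-VI, 11.46 and 11.42 in VII, 11.48 and 11.56 in VIII-IX, and 11.47 and 11.52 in IX-XI. Its range was 1.33-fold (adjusted p = 0.047, with a call in 1 of 12 leave-outs). Of the others, 24 had a wider range, up to 2.79-fold, with a median of 1.77-fold over the 27. The 26 other sets correlated with the brightest at r from 0.73 to 0.98 over the 12 arrays. These sets read 1 gene on the same arrays and are not replicates.

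**Figure D5:**
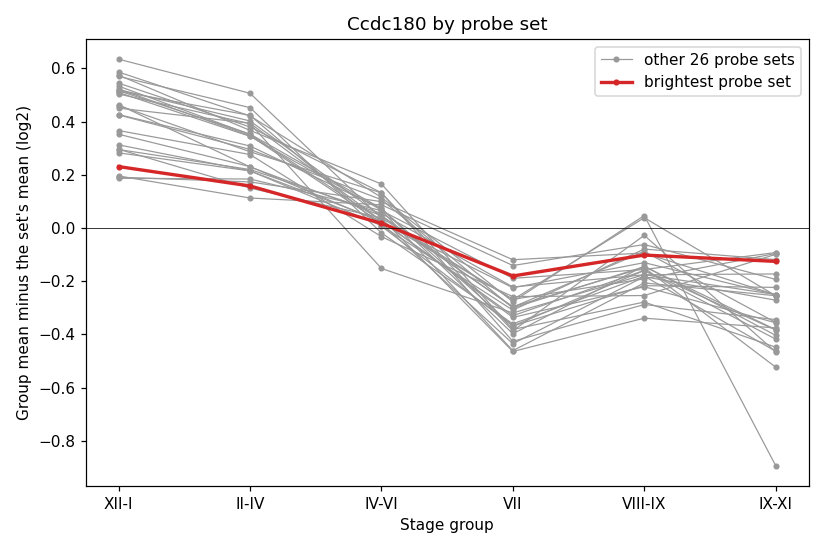
Group mean minus the probe set's own mean in log2 (y axis) for the 27 Ccdc180 probe sets over the 6 stage groups (x axis, in the order of the cycle), with the brightest set in red. All 27 lines start at their highest point in XII-I, and the red line is among the flattest, with a range of 1.33-fold.

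Profiles of called members were compared by the correlation of their 6 group means, as a description. Ccdc180 was most like Ccdc96 (r = 0.996), Ccdc105 most like Ccdc175 (r = 0.992) and Ccdc18 most like Ccdc166 (r = 0.991). Ccdc39 was most like Ccdc40 (r = 0.989). The most opposed pair was Ccdc166, high in II-IV, and Ccdc28a, high in VIII-IX (r = -0.994).

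Promoters were compared for letters that known regulators bind. The RefSeq table of GRCm38.p6 held a promoter for 68 of the 81 members, each running from 250 bases before the start to 50 after it. A total of 8 motifs was searched on both strands. The palindromic X-box bound by RFX factors, which switch on cilium genes, was searched as GTTNCC, any pair of bases and GGNAAC, and its shorter form as GTTGCC, which can lie inside it. The cyclic AMP response element bound by CREM, a factor of spermatids, was searched as TGACGTCA and its shorter form as TGACGT, which every full site holds. The X-box palindrome stood in 3 of the 68 promoters (4.41%), those of Ccdc151, Ccdc180 and Ccdc175, against 0.934% of genes with a mean of at least 9 and 0.529% of all genes in the table. The full response element stood in 3 (4.41%), those of Ccdc130, Ccdc173 and Ccdc86, against 4.07% and 2.03%.

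GTTGCC stood in 19 of the 68 promoters (27.9%), against 17.3% of genes with a mean of at least 9 and 14.1% of all genes. TGACGT stood in 12 (17.6%), against 14.6% and 8.37%. The MYB site, searched as TAACNG or CAACNG, stood in 49 (72.1%), against 53.7% and 53.1%. The CCAAT box stood in 27 (39.7%, against 43.8% and 41.1%), TATAAA in 8 (11.8%, against 8.23% and 15.7%) and GGCGGG in 35 (51.5%, against 66.2% and 37.9%). Among the 13 matched members that passed the F test with their highest mean in XII-I, 2 held the X-box palindrome and 3 held GTTGCC. A match is a description of letters and shows no binding.

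The promoters of the 3 members with an X-box palindrome, the 2 called members with a full response element and Ccdc105, the called axonemal gene with the widest range, are shown because their profiles differ. Capitals mark the match (the X-box palindrome in the first 3, TGACGTCA in the next 2 and GTTGCC in Ccdc105). Each runs 5′ to 3′ in the direction of the gene, on GRCm38.p6. Ccdc151 is at chr9:22002585-22002884 on the minus strand, Ccdc180 at chr4:45890053-45890352 on the plus strand, and Ccdc175 at chr12:72184980-72185279 on the minus strand. Ccdc130 is at chr8:84270353-84270652, Ccdc173 at chr2:69789437-69789736 and Ccdc105 at chr10:78753018-78753317, all on the minus strand.
Ccdc151: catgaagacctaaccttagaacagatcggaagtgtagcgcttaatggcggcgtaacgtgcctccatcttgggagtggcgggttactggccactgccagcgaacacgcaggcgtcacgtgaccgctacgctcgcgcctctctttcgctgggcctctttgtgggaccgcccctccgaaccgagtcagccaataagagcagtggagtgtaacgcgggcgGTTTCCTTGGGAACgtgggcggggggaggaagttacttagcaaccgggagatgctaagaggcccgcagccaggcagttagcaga
Ccdc180: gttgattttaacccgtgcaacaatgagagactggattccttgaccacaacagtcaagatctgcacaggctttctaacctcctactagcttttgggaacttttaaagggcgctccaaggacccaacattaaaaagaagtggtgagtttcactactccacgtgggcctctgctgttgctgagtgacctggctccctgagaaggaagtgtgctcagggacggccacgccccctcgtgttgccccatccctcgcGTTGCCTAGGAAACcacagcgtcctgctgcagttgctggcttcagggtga
Ccdc175: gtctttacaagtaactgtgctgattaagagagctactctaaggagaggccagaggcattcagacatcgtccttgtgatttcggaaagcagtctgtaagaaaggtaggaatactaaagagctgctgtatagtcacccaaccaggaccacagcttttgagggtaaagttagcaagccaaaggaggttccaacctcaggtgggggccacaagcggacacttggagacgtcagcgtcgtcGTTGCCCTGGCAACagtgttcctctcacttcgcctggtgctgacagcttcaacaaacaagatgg
Ccdc130: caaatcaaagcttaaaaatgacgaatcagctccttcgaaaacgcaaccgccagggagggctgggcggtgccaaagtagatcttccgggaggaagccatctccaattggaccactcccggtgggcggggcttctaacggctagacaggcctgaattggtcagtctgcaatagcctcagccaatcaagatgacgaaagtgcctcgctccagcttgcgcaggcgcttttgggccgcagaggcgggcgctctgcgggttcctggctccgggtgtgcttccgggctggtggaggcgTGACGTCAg
Ccdc173: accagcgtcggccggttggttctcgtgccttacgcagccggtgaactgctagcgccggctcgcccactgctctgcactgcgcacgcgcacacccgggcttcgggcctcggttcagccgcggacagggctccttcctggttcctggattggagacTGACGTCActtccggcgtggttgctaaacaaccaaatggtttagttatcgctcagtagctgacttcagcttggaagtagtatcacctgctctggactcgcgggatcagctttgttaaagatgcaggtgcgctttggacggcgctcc
Ccdc105: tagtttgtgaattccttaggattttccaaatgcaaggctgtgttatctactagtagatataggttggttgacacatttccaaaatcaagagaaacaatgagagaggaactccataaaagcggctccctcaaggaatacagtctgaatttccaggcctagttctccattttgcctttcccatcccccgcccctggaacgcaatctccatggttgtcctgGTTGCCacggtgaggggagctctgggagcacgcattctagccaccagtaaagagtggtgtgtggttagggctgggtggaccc
Of these genes, Ccdc151, Ccdc180 and Ccdc130 were highest in XII-I, Ccdc173 in II-IV, and Ccdc175 and Ccdc105 in IV-VI. So the 3 genes with the X-box palindrome fell into 2 peak groups. The X-box matches begin 34 bases before the annotated start in Ccdc151, 14 before it in Ccdc175 and at the start itself in Ccdc180. Of the 81 members, 1 lay on the X chromosome (Ccdc160) and 0 on the Y. On the array, 739 of 19946 genes (3.71%) were X-linked.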

How the data were processed

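Whole testis RNA of 12 samples, 100 ng each, was labelled and hybridised to Affymetrix Mouse Gene ST 1.0 arrays, per the labels' protocols. The authors deposited 1 linear intensity for each probe set, computed by RMA per the submitters' processing notes, and these were taken to log2 here. Of 28853 probe sets, 21797 paired with 1 gene symbol, 1613 with several and 5443 with none listed. The brightest set stood for each of 19946 genes. The 4 Ccdc sets with several symbols were left out.

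Stage groups were compared in limma 3.58.1 (R 4.3.3) with lmFit and eBayes: a moderated F test over 6 group means, and each group against the mean of the other 5. P-values were adjusted by Benjamini-Hochberg over all genes, with a threshold of 0.05. Folds are differences between group means of log2 values, taken back to the linear scale. The fit was tested on simulated data. The members and gene lists were chosen with earlier results of these data known, and the motifs after counts had been seen.

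Genes named are the 20 members past the F test with the widest range, called members of the axoneme, sperm head, meiosis and centrosome lists, the 5 narrowest, the 3 on each side of the level threshold and up to 3 per direction and group contrast. Others were named after their values were seen. Alternatives were array weights, median centring, repeated quantile normalization, an intensity trend, the mean of all sets, a filter on dim genes, a replicate block and leaving out arrays.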

Additional observations from a re-analysis of the deposited data

How the results depend on the processing

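The count of 32 members was 34 with array quality weights, 31 with arrays centred on their medians, 38 with an intensity trend, 32 with the mean of all probe sets, 30 with quantile normalization repeated and 34 without the dimmest 30% of genes. Leaving out 1 array at a time gave 13 to 35. It also gave 0 to 20 higher and 0 to 12 lower in XII-I, 0 to 5 and 0 to 8 in II-IV, 0 to 3 and 0 to 4 in IV-VI, 0 to 3 and 0 to 9 in VII, 0 to 13 and 0 to 13 in VIII-IX, and 0 to 5 and 0 to 2 in IX-XI. With IX-XI sample 2 and VIII-IX sample 2 both left out, 0 members passed the F test and 0 were called in any contrast, and 19 of all genes passed in limma; fewer samples were then fitted. Array quality weights gave 2 higher and 1 lower in XII-I, 13 and 8 in IV-VI, 0 and 0 in VIII-IX, and 6 and 6 in IX-XI. Both arrays of a group received the same weight, so these weights set groups apart and not single arrays. They were 1.93 in IV-VI, 1.60 in IX-XI, 0.94 in VII, 0.72 in XII-I and 0.69 in II-IV and VIII-IX. Repeated quantile normalization gave 8 higher and 11 lower in XII-I and 0 lower in IX-XI. The filter on dim genes gave 2 lower in IX-XI. The cause of these shifts was not tested. Sample numbers did not pair all groups alike: over 15 pairs of groups the correlation of deviations ran from -0.35 to 0.54, with 7 over 0.1. A block shared by only part of the groups was not tested. With the sample number as a replicate block, 37 members passed the F test. In the contrasts, 3 were then higher and 5 lower in II-IV, 7 higher in VIII-IX, and 3 higher and 2 lower in IX-XI. Called members outside the rule on range and role lists were followed singly only with arrays left out. The 24 members past the F test that this rule names were followed in every setting. Leaving out 1 array at a time, 170 of their calls were kept and 118 lost, and all 24 were lost without the pair of arrays named above. Otherwise calls were lost for Ccdc38 and Ccdc62 with array weights, Ccdc65 with median centring, Ccdc166 with repeated quantile normalization and Ccdc81 with the block. With 2 arrays a group, 1 array can decide a call, and the number of called genes over all genes changed with the array left out too.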

Other observations

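Below the level threshold, 8 of 49 Ccdc genes passed limma's F test (16.3%, against 19.9% of all genes). They were chosen after their values were seen. Ccdc152 had the widest range, with a mean of 8.51 ± 0.05 in II-IV and 6.57 ± 0.28 in IX-XI (SD, n = 2 each), a ratio of 3.83-fold (adjusted p = 0.0107). Ccdc154 in XII-I stood 2.18-fold above its VII level (adjusted p = 0.0146), and Ccdc148 in XII-I 2.03-fold above its VII level (adjusted p = 0.0181). Each of these 3 passed in 12 of 12 leave-outs. Ccdc25 was instead highest in IX-XI, 1.93-fold above XII-I (adjusted p = 0.0278), with a call in 7 of 12 leave-outs. The other 4 were Ccdc57, Ccdc71l, Ccdc106 and Ccdc78, with ranges between 1.34-fold and 1.69-fold.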
